A study of Mus musculus with 49 samples.

Results

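Haploid mouse embryonic stem (ES) cells in G1, the growth phase between mitosis and DNA replication, were described by single-cell Hi-C, an assay that joins and sequences pairs of chromosome segments lying close together in 1 nucleus. The G1 cells were chosen by the authors' quality flag and group label, which rest on measured values of these cells; the groups separate mainly on the short-range share of contacts. They number 324 of the 1247 passing haploid cells, in a series of 4098 passing cells. The haploid line is H129-1, which carries a single copy of each chromosome, and the series also holds a diploid F1 hybrid line. G1 cells came from 17 of 20 haploid libraries.

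The cells fall into 3 conditions, known by name. Serum_G1/S gave 147 G1 cells in 6 libraries, from cells in medium with fetal bovine serum on feeder cells, which were depleted before Oct-3/4-positive cells were sorted. 2i_G1 gave 139 in 5 libraries, and 2i_all gave 38 in 6 of its 8 libraries, both from the serum-free medium 2i without feeders. The last part of each name is read here as the part of the cell cycle that was collected. Medium, feeder cells with the depletion and sort that followed, and collected fraction thus cannot be told apart between serum and 2i. All conditions share 1 cell line and formaldehyde fixation. Separate cultures are not named for the libraries, so every p-value measures the spread between these libraries only, which may be technical.

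In mitosis chromosomes are condensed and lose most of their domains. As cells enter G1 the chromosomes open again, active A and inactive B compartments separate, and cohesin, a ring-shaped complex that extrudes loops, rebuilds domains and loops. No gene or sequence values belong to these cells: each was described by 15 measures computed by the authors. They cover contact distance (the short-range share, the share in a band named mitotic, and the mean distance of far contacts), compartments within and between chromosomes, insulation at domain borders, loops, contacts between chromosomes, replication and quality. Formulas and band limits are not given in the sources used here, and scores have no unit.

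The label G1 rests on measured values, since the authors' groups separate largely on the short-range share. Over the 324 cells this share spanned 37.9% to 64.1% with a median of 54.6%, and in the 559 early-S cells, the group next to it, 57.5% to 79.5%. Of the G1 cells, 97 lay at or above the lowest early-S cell. The mitotic-band share had a median of 16.1% and a range of 12.7% to 31.4%. Both shares are given without a test, because the groups may have been drawn on them. The share of passing cells called G1 followed the condition names. It averaged 24.4% ± 3.31 per library (SD, n = 6) in Serum_G1/S, 49.7% ± 9.90 (n = 5) in 2i_G1 and 7.84% ± 7.70 (n = 8) in 2i_all. Libraries with as few as 4 passing cells counted like the others here. Over pooled cells the shares were 25.3%, 51.3% and 9.62%. The differences between library averages were 16.5 points for Serum_G1/S minus 2i_all, 41.9 points for 2i_G1 minus 2i_all and -25.3 points for Serum_G1/S minus 2i_G1. They are given without a test, since the G1 label chose the cells and the collected fraction bears on these shares.

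Depth differed between conditions. A G1 cell had a median of 126548 contacts in Serum_G1/S, 69285 in 2i_G1 and 43364 in 2i_all, and 10332 to 384530 over all cells. Summed per library, G1 contacts ran between 20633 and 4595317. Only libraries with at least 5 G1 cells entered comparisons of folding, which left 4 libraries of Serum_G1/S (haploid 17 to 20), 5 of 2i_G1 (haploid 10 to 14) and 3 of 2i_all (haploid 3, 7 and 8).

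At the borders of the group, some values differed between neighbouring cells of the authors' order. Only 3 cells, called post-M, stood before G1. The 10 earliest G1 cells had mitotic-band shares of 20.5% to 31.4%, against 38.4% to 50.0% in the post-M cells. Their mean insulation was 1.99 to 2.31, against 1.62 to 1.73 in post-M. At the other end, the 10 latest G1 cells had a median short-range share of 60.4%, against 61.4% in the 10 earliest early-S cells, so this measure ran on smoothly. The far distance did not: its median was 39.5 Mb (36.1 to 41.3 Mb) in the 10 latest G1 cells and 30.2 Mb (23.3 to 38.0 Mb) in the 10 earliest early-S cells. The replication score, read from its name as a measure of DNA already copied, had a median of 1.12 in the 10 latest G1 cells and 1.02 in the 10 earliest early-S cells. These cells at the borders are described without a test. The order that picked them may rest on the 2 shares, the far distance and the replication score. Smooth or uneven steps in these values thus cannot be told apart from how the order was made.

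Along the order inside G1, compartments and insulation strengthened while the alignment score fell. In the 9 libraries with at least 10 G1 cells, each library's cells were split at the middle of the order into later and earlier cells. There, 4 measures changed in every library: the cis compartment score, the trans compartment score and the insulation rose, and the alignment score fell. Each of the 4 had an exact two-sided sign-flip adjusted p of 0.0107 over 11 measures, and 36.4% of the measures tested were called. The p of 0.00391 before adjustment is the smallest that 9 libraries allow. Whether the authors' ordering used these measures is not stated, so independence of the changes from it is not shown. Within libraries the order went with the short-range share (median Spearman's rho 0.866) and the far distance (0.812). It ran against the mitotic-band share (-0.846). Each of the 4 measures was related to at least 1 of these values in 9 of 9 libraries, so the p-values do not show a change apart from them.

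The cis compartment score, which grades how far segments of 1 compartment prefer each other within a chromosome, averaged 0.308 ± 0.0240 in later cells and 0.263 ± 0.0324 in earlier cells (SD, n = 9 libraries). The gain was between 0.0285 (haploid 17) and 0.0638 (haploid 13), with a median of 0.0428. The trans compartment score, the same preference between chromosomes, averaged 0.179 ± 0.0250 in later cells and 0.126 ± 0.0244 in earlier cells, with gains between 0.0314 and 0.0701. Over 6 bins of 54 cells the cis score gained most at the start, with means of 0.234, 0.277, 0.295, 0.294, 0.305 and 0.299. The trans score went 0.104, 0.134, 0.166, 0.156, 0.179 and 0.181. Serum_G1/S cells made up 28, 31, 32, 24, 24 and 8 of the 54 cells in these bins, so the pooled means also move with the mix of conditions. Within conditions, and with the order in 3 parts of equal size, the cis score was 0.287, 0.327 and 0.335 in Serum_G1/S and 0.208, 0.260 and 0.284 in 2i_G1.

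**Figure D1:**
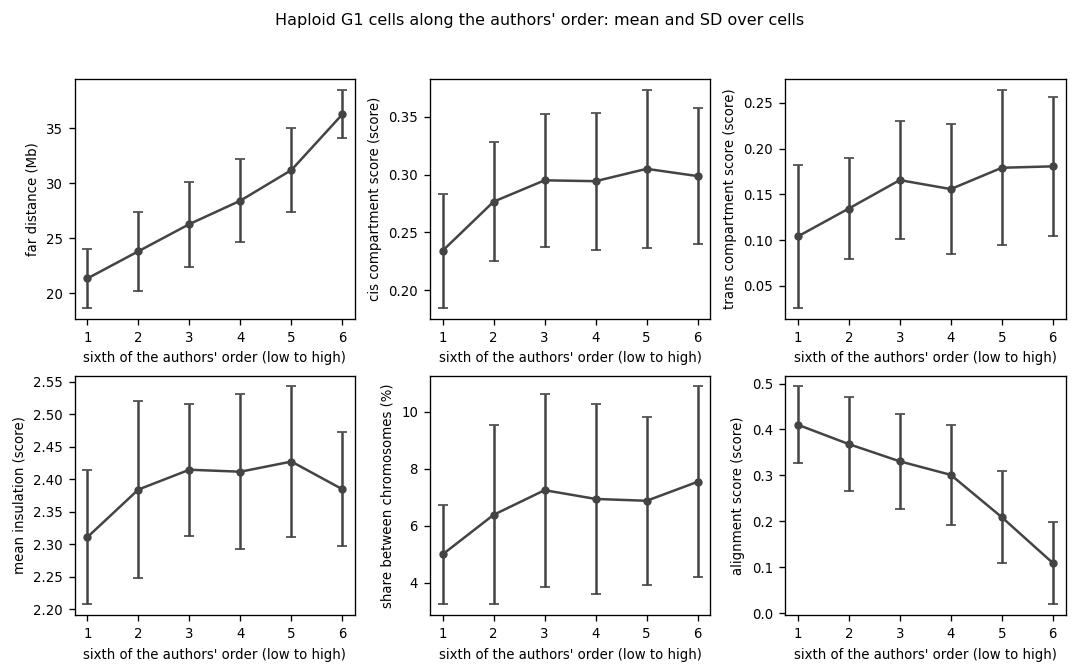
Mean and SD over cells (points and bars) of 6 measures in 6 bins of 54 haploid G1 cells along the authors' order, low to high on the x axis; distances are in Mb, shares in % and scores have no unit. The far distance climbs through every bin to 36.3 Mb, compartment scores gain most in the earliest bins, and the alignment score drops to 0.109.

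Mean insulation, which by its name grades the loss of contacts across domain borders, averaged 2.42 ± 0.0334 in later cells and 2.36 ± 0.0471 in earlier cells. The gain was as small as 0.0186 in haploid 19 and as large as 0.0901 in haploid 12. In the bins insulation was 2.31, 2.38, 2.41, 2.41, 2.43 and 2.38, so its lowest level stood at the beginning and the last bin lay below the one before it. Among cells between the 25th and 75th percentile of contacts, its gain of 0.0499 no longer passed (adjusted p = 0.172, exact sign-flip test), and among cells with even chromosome coverage it was 0.102 (adjusted p = 0.0143, exact).

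The alignment score, read from its name as how chromosomes lie along each other, averaged 0.227 ± 0.0880 in later cells and 0.356 ± 0.0729 in earlier cells. It fell by 0.129 on average, with extremes of -0.0242 in haploid 20 and -0.21 in haploid 7. Chromosome arms lie side by side when they are pulled apart in mitosis, which is background to a score of this kind and not a result. In the bins it was 0.410, 0.368, 0.331, 0.301, 0.209 and 0.109. Contacts between chromosomes, as a share of a cell's contacts, averaged 7.12% ± 1.76 in later cells and 6.06% ± 1.75 in earlier cells. This share was higher in 8 of 9 libraries and did not pass (adjusted p = 0.0773, exact). In haploid 20 it was lower in later cells (-1.55 points), and without that library the mean difference was 1.39 points (adjusted p = 0.0172, exact). It also passed with the last of 3 parts of the order set against the first (1.79 points, adjusted p = 0.0172, exact) and with medians (1.04 points, adjusted p = 0.0344, exact). In haploid 20 contacts per cell were also lower in later cells, with a difference of -39545, against differences between -12137 and 44682 in the other libraries. The part of depth in this was not tested.

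**Figure D2:**
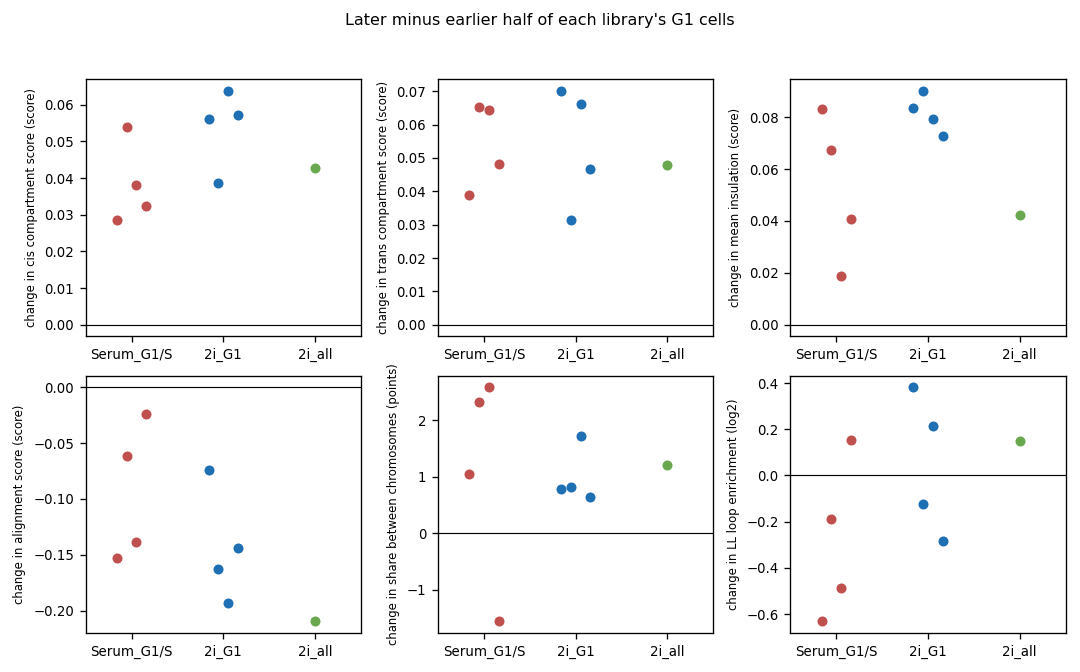
Later minus earlier G1 cells of each haploid library (1 point per library, 9 in all) by condition, for 6 measures; the line marks 0, shares are in points, loops in log2 and scores have no unit. The first 4 panels show every library on 1 side of 0, the share between chromosomes has 1 library below it at -1.55 points, and LL loops scatter on both sides.

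With all G1 cells, loops, depth and quality did not change past the threshold. EE loops, read from the name as loops between early-replicating sites, had an enrichment of 0.96 ± 0.14 in later cells and 1.00 ± 0.17 in earlier cells (log2). LL loops, between late-replicating sites by the same reading, had 1.34 ± 0.17 in later cells and 1.43 ± 0.25 in earlier cells. The adjusted p was 0.641 for EE and 0.535 for LL loops (exact sign-flip tests). Contacts per cell, the share without digestion, the duplicated share and the coverage deviation had adjusted p between 0.534 and 0.61 in the same test. Among cells between the 25th and 75th percentile of contacts the coverage deviation did pass, with later cells higher by 0.0811 (adjusted p = 0.043, exact), against 0.0156 in all cells.

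Measures on which the order may rest are given without a test. Later cells had a short-range share of 57.4% ± 0.892, against 50.6% ± 1.28 in earlier cells, and a mitotic-band share of 15.0% ± 0.316, against 18.3% ± 1.05. Their far distance was 31.2 ± 3.40 Mb, against 24.2 ± 2.64 Mb in earlier cells. The replication score was 1.11 ± 0.0326 in later cells and 1.10 ± 0.0340 in earlier cells, higher in 6 of 9 libraries.

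The course was also set against condition. In the 4 Serum_G1/S libraries the cis score gained 0.0381 and insulation 0.0525, against 0.0539 and 0.0815 in 4 2i_G1 libraries. The trans score gained 0.0542 in Serum_G1/S and 0.0536 in 2i_G1. None of the 11 differences between serum and 2i_G1 courses passed an exact permutation test (adjusted p between 0.471 and 0.943), and none had an unadjusted p under 0.05. Far distance, given as a description, gained 4.68 ± 2.76 Mb in Serum_G1/S and 8.25 ± 1.45 Mb in 2i_G1. Serum_G1/S cells also lay earlier in the order, at a median position of 135, against 209 in 2i_G1 and 137 in 2i_all, on a scale from 4 to 327.

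Between conditions, serum G1 cells had stronger compartments, more insulation and more contacts between chromosomes than 2i G1 cells. Set against both 2i conditions together, a comparison added after the data were seen, 6 of 13 measures passed an exact permutation test over 4 and 8 libraries, or 46.2%. These were the cis and trans compartment scores, insulation, the share between chromosomes, contacts per cell and the coverage deviation, all higher in serum. Within the pairs of conditions no measure passed after adjustment over 39 tests: 0% of 13 for Serum_G1/S minus 2i_G1, 0% of 13 for Serum_G1/S minus 2i_all and 0% of 13 for 2i_G1 minus 2i_all. Under an unadjusted exact p of 0.05 these pairs had 8, 6 and 2 measures. The smallest p that the pairs allow was 0.00794, 0.0286 and 0.0179, and 6 measures reached it for Serum_G1/S minus 2i_G1 (adjusted p = 0.0516, exact). For that pair 8 measures passed when libraries needed at least 10 G1 cells (adjusted over 13 tests, since the other pairs then had no value) and 7 when medians replaced means.

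The cis compartment score was 0.314, 0.312, 0.313 and 0.312 in the serum libraries haploid 17 to 20. It was 0.275, 0.246, 0.265, 0.255 and 0.262 in the 2i_G1 libraries haploid 10 to 14, and 0.245, 0.291 and 0.274 in the 2i_all libraries haploid 3, 7 and 8. The serum libraries lay close together and above every 2i library. Serum libraries averaged 0.313 ± 0.00111 (SD, n = 4) and all 2i libraries 0.264 ± 0.0155 (n = 8), with adjusted p = 0.00525 (exact permutation test).

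The trans compartment score was 0.171, 0.172, 0.184 and 0.180 in serum, against 0.140, 0.117, 0.129, 0.141 and 0.138 in 2i_G1 and 0.159, 0.146 and 0.103 in 2i_all. The groups did not overlap, with means of 0.177 ± 0.00639 in serum and 0.134 ± 0.0176 in 2i (adjusted p = 0.00525, exact). Insulation was 2.42, 2.41, 2.42 and 2.46 in serum, against 2.30, 2.37, 2.35, 2.36 and 2.34 in 2i_G1 and 2.41, 2.37 and 2.36 in 2i_all. Here 1 library of 2i_all, haploid 3, reached into the serum range (adjusted p = 0.00875, exact).

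**Figure D3:**
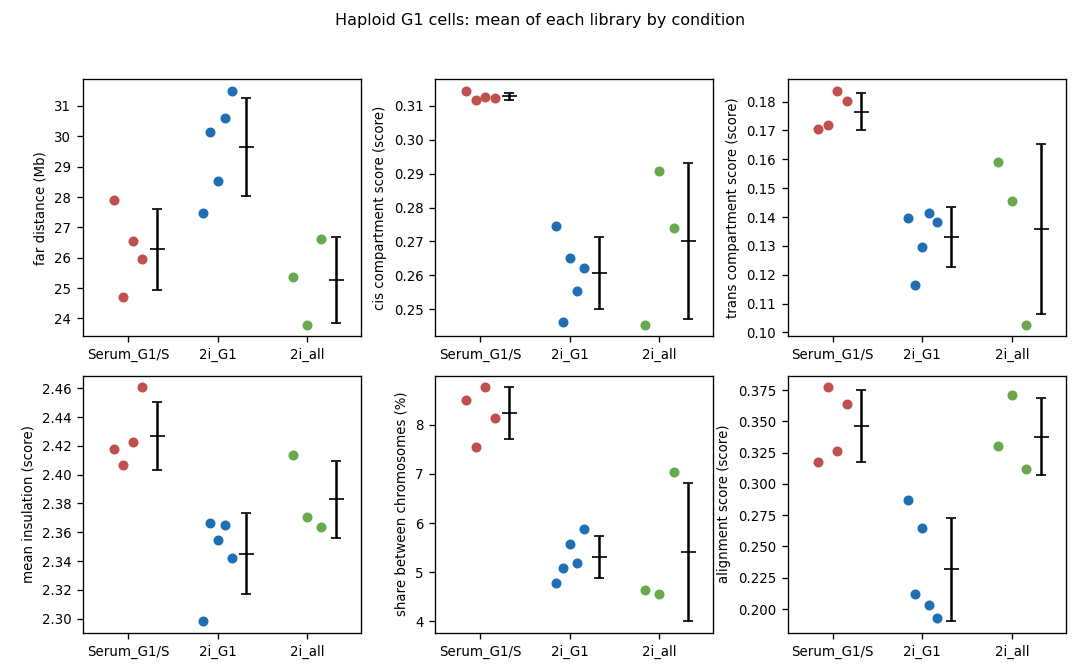
Mean over G1 cells of each haploid library with at least 5 of them (points), with the mean and SD over libraries (bars), by condition, for 6 measures; distances are in Mb, shares in % and scores have no unit. The 4 Serum_G1/S libraries lie above all 8 libraries grown in 2i in both compartment scores and in the share between chromosomes.

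Contacts between chromosomes took 8.49%, 7.54%, 8.76% and 8.14% in serum, against 4.79%, 5.09%, 5.57%, 5.18% and 5.88% in 2i_G1 and 4.65%, 4.56% and 7.04% in 2i_all. The lowest serum library stood above the highest 2i library, haploid 8. Means were 8.23% ± 0.525 in serum and 5.34% ± 0.820 in 2i (adjusted p = 0.00525, exact permutation test). Contacts per cell moved with these measures: 118343 ± 17934 in serum and 65375 ± 18167 in 2i (adjusted p = 0.00525, exact). Within 9 libraries the share between chromosomes rose with contacts (median Spearman's rho 0.346, positive in 9 of 9). It averaged 5.77% ± 1.52 in the cells of each library with fewer contacts and 7.36% ± 1.92 in those with more. The same rho was 0.0626 for the cis score, 0.0334 for the trans score and -0.0613 for insulation. The part of depth in the serum differences was not tested. Among cells between the 25th and 75th percentile of contacts, 3 serum and 5 2i libraries had enough cells. The differences were then 0.0455 for the cis score, 0.0397 for the trans score, 0.0837 for insulation and 2.53 points for the share between chromosomes, against 0.0486, 0.0424, 0.0677 and 2.89 points in all cells. None of the 13 measures passed in that smaller set, whose smallest possible p was 0.0179 (5 had an unadjusted exact p under 0.05), and serum cells still had more contacts there (92958 against 69844).

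The alignment score and the far distance did not pass in any pair of conditions, and 2i_G1 stood apart from the others in the alignment score only by its values. The alignment score was 0.318, 0.377, 0.327 and 0.364 in serum, 0.287, 0.212, 0.265, 0.203 and 0.192 in 2i_G1 and 0.330, 0.371 and 0.312 in 2i_all. All 5 libraries of 2i_G1 lay below all others. The difference was -0.106 for 2i_G1 minus 2i_all (adjusted p = 0.0871, exact) and 0.115 for Serum_G1/S minus 2i_G1 (adjusted p = 0.0857, exact), so neither passed. The far distance was 27.9, 24.7, 26.6 and 26 Mb in serum, 27.5, 30.2, 28.5, 30.6 and 31.5 Mb in 2i_G1 and 25.4, 23.8 and 26.6 Mb in 2i_all. It was 4.39 Mb longer in 2i_G1 than in 2i_all and shorter in serum than in 2i_G1 (a difference of -3.37 Mb), each with an exact adjusted p of 0.0871. In far distance haploid 10 of 2i_G1 lay below haploid 17 of serum, so these conditions overlapped. Both measures also follow the order, on which 2i_G1 cells lay later.

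Loop enrichments overlapped between conditions. EE loops averaged 0.96 ± 0.13 in serum, 1.06 ± 0.08 in 2i_G1 and 1.08 ± 0.22 in 2i_all (log2). LL loops averaged 1.33 ± 0.15 in serum, 1.46 ± 0.13 in 2i_G1 and 1.66 ± 0.25 in 2i_all. The largest of these differences, -0.32 in LL loops for Serum_G1/S minus 2i_all, had an adjusted p of 0.183 (exact). It was -0.18 without haploid 8 and -0.18 with libraries of any number of G1 cells. The replication score averaged 1.09 ± 0.0124 in serum, 1.13 ± 0.0350 in 2i_G1 and 1.09 ± 0.0197 in 2i_all. Its p is not given, because the G1 group may have been drawn on this score, though the 39 tests include it. The share without digestion was 26.7% ± 0.878 in serum, 28.3% ± 2.14 in 2i_G1 and 34.4% ± 5.95 in 2i_all, where haploid 7 and 8 were at 38.7% and 36.9%.

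The coverage deviation, read from its name as the largest departure of any chromosome's coverage in a cell, split serum G1 cells into 2 sets. In Serum_G1/S, 77 of 147 G1 cells (52.4%, exact 95% interval 44.0% to 60.7%, counting error only) had a score of 0.5 or more, a limit chosen after the values were seen. In 2i_G1 these were 11 of 139 cells (7.91%, 4.02% to 13.7%) and in 2i_all 4 of 38 (10.5%, 2.94% to 24.8%). Every serum library with at least 5 G1 cells had the uneven cells: 51.4% in haploid 17, 51.4% in haploid 18, 47.6% in haploid 19 and 60.7% in haploid 20. Few serum cells lay near the limit, 1 between 0.4 and 0.5 and 6 between 0.5 and 0.6. In early-S cells the share was 44.1% in serum, 3.2% in 2i_G1 and 19.8% in 2i_all, so uneven cells were present outside G1 and outside serum too. Among 2i_all libraries they made up 9 of 13 early-S cells in haploid 1 and 10 of 24 in haploid 3, and 2 of 4 G1 cells in haploid 1.

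**Figure D4:**
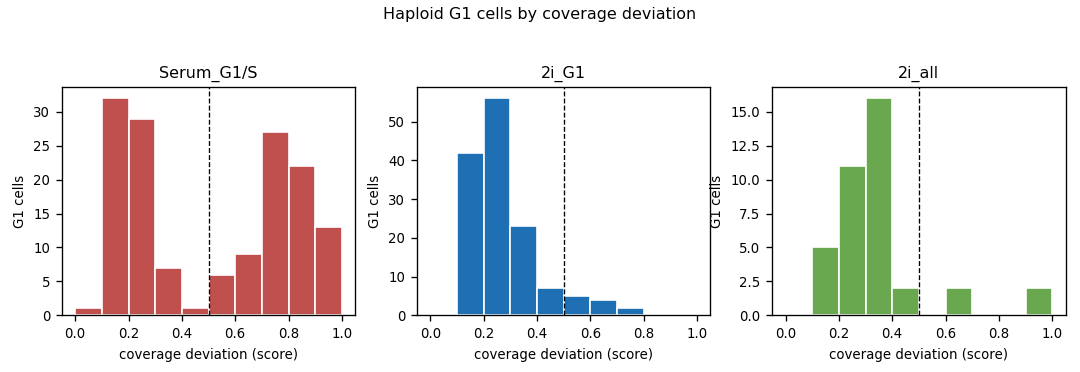
Number of haploid G1 cells by coverage deviation (score, steps of 0.1) in each condition; the dashed line marks 0.5. Serum_G1/S cells form a lower and an upper set, with 77 of 147 cells at 0.5 or more, while 2i_G1 has 11 of 139 and 2i_all 4 of 38.

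Uneven serum cells had values near those of even ones in most folding measures. Over 4 libraries the cis score was 0.309 ± 0.00586 in uneven and 0.317 ± 0.00815 in even cells. The trans score was 0.178 ± 0.00646 in uneven and 0.177 ± 0.0125 in even cells, and the share between chromosomes 8.12% ± 0.413 in uneven and 8.36% ± 0.637 in even cells. Insulation was 2.40 ± 0.0294 in uneven and 2.46 ± 0.0319 in even cells. These sets were made from the data and were not tested. With even cells alone in every condition, serum minus all 2i was 0.0543 for the cis score, 0.0450 for the trans score, 0.101 for insulation and 2.99 points for the share between chromosomes, each with adjusted p = 0.00525 (exact permutation test). In all cells the insulation difference was 0.0677.

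The difference between serum and 2i_G1 was set beside the same difference in early-S cells of the same libraries, a comparison added after the data were seen. The difference of differences had an adjusted p under 0.05 in 3 of 13 measures, or 23.1%. The replication score is 1 of these and is not read as a result, since the groups may have been drawn on it. The adjustment over 13 measures includes it. The early-S cells had a short-range share of 69.5% ± 0.722 in Serum_G1/S and 65.7% ± 0.858 in 2i_G1. In G1 cells it was 53.4% ± 0.798 and 54.1% ± 0.261. Early-S cells of these conditions may thus lie at unlike points of the cycle, and the part of this in the gaps was not tested. The replication score was lower in serum than in 2i_G1 among G1 cells (-0.0379) and higher among early-S cells (0.0775), a gap of -0.115. Its p is not given, because the groups may have been drawn on this score. Contacts per cell were 47969 higher in serum among G1 cells and 90475 higher among early-S cells, and the duplicated share was 0.0563 points higher among G1 cells and 0.525 points higher among early-S cells (adjusted p = 0.0344 for each gap, exact permutation test). Insulation was 0.0817 higher in serum among G1 cells and lower by 0.0677 among early-S cells (-0.0677), a gap of 0.149 that did not pass (adjusted p = 0.0516, exact). The cis score differed by 0.0521 in G1 and 0.0646 in early-S, with adjusted p = 0.34 (exact).

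Most variation lay between cells of the same library. The pooled SD over cells within libraries was 5.53 Mb for the far distance, 0.0564 for the cis score, 0.0745 for the trans score, 0.114 for insulation and 0.126 for the alignment score. Library means had SDs of 2.41 Mb, 0.0269, 0.0254, 0.0438 and 0.0655 for the same 5 measures over 12 libraries. Differences between libraries made up 15.4%, 18.2%, 6.85%, 7.96% and 23.5% of the variance. The 12 libraries span all 3 conditions, so these SDs and percentages include differences between conditions. Within conditions the SDs of library means were 1.49 Mb, 0.0130, 0.0159, 0.0263 and 0.0352. The replication score had the largest library share among the 15 measures, 25.7%, and the short-range share the smallest, 0%. In early-S cells the far distance varied less within libraries, with a SD of 3.50 Mb, and in late-S/G2 cells less still, with 3.15 Mb. The alignment score likewise had SDs of 0.126 in G1, 0.0986 in early-S and 0.0952 in late-S/G2 cells. These spreads were not tested, since the groups were cut from the same measures.

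Loop enrichments scattered widely between cells. The SD within libraries was 0.57 for EE and 0.72 for LL loops, against library means of 1.03 and 1.47 (log2). Among 324 cells, LL values took 102 distinct levels, and 31.5% of cells shared the 5 commonest. Within libraries LL enrichment ran against contacts per cell, with a median Spearman's rho of -0.43 over the cells of 9 libraries. In the cells of each library with fewer contacts it averaged 1.64 ± 0.21, and in those with more 1.16 ± 0.11.

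Measures were related within libraries as follows, each value being a median Spearman's rho over cells in 9 libraries (294 cells), given as a description since measures of a cell share its contacts and depth. Far distance and alignment ran opposite (-0.782, negative in 9 of 9 libraries). The short-range share went with the cis score (0.581) and the trans score (0.527), and the mitotic-band share ran against insulation (-0.482). Cis and trans compartment scores went together less closely (0.408). The duplicated share went with contacts per cell (0.763) and the share without digestion ran against them (-0.62). The replication score was weakly related to contacts (-0.312) and had no relation over 0.2 in size with a folding measure.

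Haploid G1 cells in 2i had higher loop enrichments than diploid G1 cells in 2i. Only shares, distances, loops and counts were compared, since the scale of the scores is not shown to be the same in both tables. The G1 cells differed in the share on which the groups separate. The short-range share was 54.2% ± 0.843 in haploid and 57.1% ± 1.14 in diploid libraries. The mitotic-band share was 16.8% ± 0.688 in haploid and 16.2% ± 0.839 in diploid libraries. Their place within G1 may thus differ, and its part in the differences below was not tested. Of 7 measures 5 passed an exact permutation test over 8 haploid and 10 diploid libraries, or 71.4%. The diploid libraries came from conditions named 1CDU, 1CD_G1 and NoSort, which were pooled in this test. They ranged from 80986 to 246571 mean contacts per G1 cell, and from 25.7% to 49.7% in the share without digestion. LL loops ranged over libraries between 1.27 and 1.94 (median 1.53) in haploid cells and between 0.90 and 1.12 (median 0.99) in diploid cells, with no overlap. They averaged 1.53 ± 0.19 in haploid and 0.99 ± 0.06 in diploid libraries (log2), with adjusted p = 0.00016 (exact). EE loops averaged 1.06 ± 0.13 in haploid and 0.77 ± 0.11 in diploid libraries (adjusted p = 0.00056, exact).

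**Figure D5:**
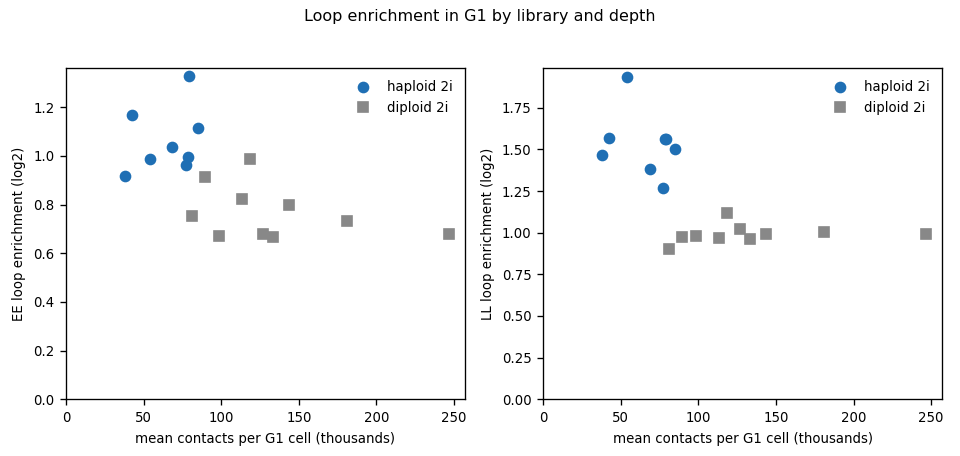
Mean EE and LL loop enrichment (log2, y axes from 0) against mean contacts per G1 cell for 8 haploid and 10 diploid libraries grown in 2i. Every haploid library lies above every diploid library in LL loops, and haploid libraries had fewer contacts.

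Depth moved with this difference. Haploid libraries averaged 65375 ± 18167 contacts per G1 cell and diploid libraries 133149 ± 49122 (adjusted p = 0.00068, exact). Among cells with 66998 to 216115 contacts, the LL difference was 0.25, against 0.54 in all cells, and the EE difference 0.22, against 0.29, each with adjusted p = 0.0105 (exact, 4 haploid and 10 diploid libraries). In the same cells the far distance was 3.45 Mb longer in haploid libraries (adjusted p = 0.0227, exact), while in all cells it was 28 ± 2.69 Mb in haploid and 27.9 ± 2.01 Mb in diploid libraries (adjusted p = 0.892, exact). The 4 haploid libraries left there were all of 2i_G1. They still had fewer contacts per cell, 96304 ± 5800 in haploid and 128159 ± 23841 in diploid libraries (adjusted p = 0.0268, exact), so depth was not matched, and its part in the loop differences was not tested. The share between chromosomes was 5.34% ± 0.820 in haploid and 5.93% ± 1.11 in diploid libraries (adjusted p = 0.275, exact).

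Quality differed too. The share without digestion was 30.6% ± 4.76 in haploid and 40.6% ± 7.59 in diploid libraries (adjusted p = 0.0102, exact), and the duplicated share 0.948% ± 0.251 in haploid and 3.39% ± 1.73 in diploid libraries (adjusted p = 0.00068, exact). Line, copy number and library quality cannot be told apart in this comparison. With 2i_G1 set against the diploid G1 condition alone, 5 libraries against 2, differences were 0.46 in LL and 0.35 in EE loops. No test of that design can go below p = 0.0476, and each adjusted p was at least 0.0556 (exact).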

How the data were processed

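The deposited tables used, for the haploid and the diploid line, hold 1 row per cell with the authors' measures. Per the file headers, contacts are given as a count in each cell. The deposited band, between-chromosome, digestion and duplication shares are each a fraction, shown here in percent. Compartments, insulation, alignment, replication and coverage deviation are each a deposited score of undefined scale, and loop enrichments are read as deposited log2 values from their range. Far distance is in bp, shown in Mb. Per the submitters' processing notes reads were aligned with Bowtie2 to mm9. Quality flags, groups, order and conditions are the authors'.

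Batch numbers were joined to libraries through the deposited cell list, and 323 of 324 cell names matched there. The other cell was joined by number. Folding values are means over a library's G1 cells (at least 5), then mean and SD over libraries. Conditions and lines were compared by exact two-sided permutation of library labels, with Benjamini-Hochberg adjustment over 39 tests (pairs of conditions), 13 (serum against all 2i, and G1 against early-S) or 7 (lines), and a threshold of 0.05. The course used later minus earlier cells per library (at least 10 cells, the middle cell left out of odd numbers) and an exact two-sided sign-flip test over 11 measures. Short-range and mitotic-band shares were not tested, nor were far distance and the replication score along the order. The planned test of the share of cells called G1 is not reported, since the label chose the cells. Every measure is named, libraries only where they change a call or value.

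Members and measures were chosen with earlier results of these data known. Both tests were run on simulated data with a set shift. The permutation test called 83.3% of changed and 0% of unchanged features, and the sign-flip test 100% and 6.67%. The simulated spread between libraries was not fitted to these data, so these rates need not hold for them. Alternatives were minimums of 1, 10 and 20 cells, medians, cells between the 25th and 75th percentile of contacts, leave-one-out, the G1 conditions alone and a replicate block. Serum against all 2i, early-S as a second contrast, the course by medium and cells with a coverage deviation under 0.5 were added after the data were seen. Python 3.11.15, numpy 2.4.6, pandas 2.3.3 and scipy 1.17.1 were used.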

Additional observations from a re-analysis of the deposited data

Results flagged for a closer look

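Of 51 groups of 4 to 10 libraries examined for a library far from the others, 2 had one. Chance alone gives one in about 1 of 20 groups, so these 2 are no more than chance would give. The replication score of the serum library haploid 19 averaged 1.11, against 1.09 in the nearest of the 4 serum libraries. The later minus earlier difference of the share between chromosomes was -1.55 points in haploid 20, against 0.634 points in the nearest of the 9 libraries.

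For 2 measures the difference between Serum_G1/S and 2i_G1 itself differed between G1 and early-S cells of the same libraries. The gap, G1 minus early-S, was -42507 for contacts per cell and -0.468 points for the duplicated share, each with adjusted p = 0.0344 (exact permutation test, 4 and 5 libraries). It was -0.115 for the replication score, whose p is not given because the groups may have been drawn on it. The cause was not tested.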

How the results depend on the processing

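The labels name medium and collected fraction together, and serum cells also had feeder cells, their depletion and the Oct-3/4 sort. These cannot be told apart between serum and 2i, and few G1 cells per library limit the precision. Without any 1 library, the counts of measures that passed were 0 to 0 for the condition pairs. Leaving out a library raises the smallest p that a pair allows, so these counts cannot show stability. Counts ranged from 6 to 7 for serum minus all 2i, 4 to 5 along the order and 5 to 5 for haploid minus diploid. Differences in G1 shares ranged from 15.4 to 18.4 points (serum minus 2i_all) and 38.6 to 44.3 points (2i_G1 minus 2i_all). For serum minus 2i_G1 they ranged from -27.7 to -22.1 points. With a minimum of 1 cell, 3 measures passed for serum minus 2i_all and 2 for serum minus 2i_G1, where 8 passed with at least 10 cells, adjusted over only 13 tests, and 7 with medians. In cells between the 25th and 75th percentile of contacts, 0 passed for serum minus all 2i. For the pairs with 2i_all, that range of contacts and a minimum of 10 cells gave no value, because fewer than 2 libraries of 2i_all had enough cells. Along the order 5 passed with medians and 5 with the first and last of 3 parts, while 0 passed in 2i libraries only and 0 in serum libraries only, sets too small to pass (smallest p 0.0625 and 0.125, exact sign-flip test). For haploid minus diploid 0 passed in G1-gated cells, and 0 with the replicate block over 3 pairs, which cannot go below p = 0.25 (exact sign-flip test); these libraries share only a number.

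Signs turned as follows, with the cause not tested. Cells with even coverage were chosen on the coverage deviation itself, so its turns in that setting are no independent result. For serum minus 2i_all these were the replication score (-0.00205, minimum of 1 cell; -0.000156, even coverage), the duplicated share (-0.283 points, minimum of 1 cell), the alignment score (-0.0284, medians) and the coverage deviation (-0.0847, even coverage). For 2i_G1 minus 2i_all they were, with a minimum of 1 cell, the cis score (0.0151), the share between chromosomes (0.501 points) and the duplicated share (-0.374 points), and with medians the share between chromosomes (0.336 points). For serum minus 2i_G1 they were EE loops (0.0798, minimum of 1 cell; 0.0779, middle contacts), LL loops (0.0945) and the share without digestion (2.42 points), both with a minimum of 1 cell, and the coverage deviation (-0.0334, even coverage). Along the order they were EE loops (0.0350, first and last of 3 parts; 0.0335, even coverage; 0.0305, 2i only), the share without digestion (-0.322 points, first and last of 3 parts; -1.34, middle contacts; -0.194, serum only), LL loops (0.0666, 2i only) and the coverage deviation (-0.0133, even coverage; -0.00572, 2i only). For haploid minus diploid they were the far distance (-0.175 Mb, medians) and the share between chromosomes (0.0889 points, middle contacts). For serum minus all 2i they were EE loops (0.0585) and LL loops (0.0315), both in middle contacts, and the coverage deviation (-0.0526, even coverage). Loop values are log2.

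Leaving out 1 library turned the sign of 10 values. For serum minus 2i_all the ranges were -0.192 to 0.0131 for EE loops, -0.00424 to 0.0134 for the replication score and -0.00443 to 0.0253 for the alignment score. For 2i_G1 minus 2i_all they were -0.0193 to 0.0089 for the trans score, -0.101 to 0.104 for EE loops, -0.0217 to 0.00102 for the cis score, -0.000565 to 0.334 points for the duplicated share and -0.539 to 0.701 points for the share between chromosomes. Along the order EE loops ranged from -0.0953 to 0.00179, and for haploid minus diploid the far distance from -0.349 to 0.752 Mb.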
